A study of Mus musculus with 8 samples.

Results

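The genes described here encode the proteins of the cytosolic ribosome. They were chosen by name, as protein-coding genes whose GENCODE symbol is Rpl or Rps followed by a number and at most one of the letters a, x or l, together with Rplp0, Rplp1, Rplp2 and Rpsa. The rule found 80 of the 50599 genes in the files, 49 of the large subunit and 31 of the small subunit, and they lie on 19 chromosomes, with 14 of them on chromosome 7. The rule reads names only, though the family was taken up with earlier results of these data known. RNA was sequenced from hearts of 12-week-old male C57BL/6N mice, 4 wildtype hearts and 4 hearts with a knockout of Lrpprc. The methods do not say whether the whole heart was used. Lrpprc is a mitochondrial RNA-binding protein that protects mitochondrial mRNAs. The knockout is made by Cre recombinase in heart and skeletal muscle, so other cells of the heart keep the gene, and the study's methods describe its controls as carrying the loxP alleles without Cre. Each library is 1 heart, made from total RNA with random primers after cytoplasmic rRNA was removed.

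The ribosome that translates nuclear-encoded mRNAs is built from rRNA and from a large and a small set of proteins, nearly all of them present once in each particle. Their mRNAs are abundant in every tissue and are made in balanced amounts, and mammalian ribosomal protein mRNAs begin with a C and a run of pyrimidines (the 5′ terminal oligopyrimidine, or TOP, motif) through which the mTOR kinase and LARP1 control their translation and stability. A few ribosomal proteins have a paralog made in particular tissues. In striated muscle the best known is Rpl3l, which takes the place of Rpl3 in the large subunit.

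The libraries held 35218541 to 47743376 expected counts, a unit in which RSEM divides reads that match several genes among them. Lrpprc itself stood at 3424 to 3946 normalised counts in the wildtype and at 504 to 605 in the knockout, as the labels say. The cardiomyocyte markers Myh6, Tnnt2, Actc1 and Ryr2 summed to 783922 to 878131 normalised counts in the wildtype and to 373632 to 487043 in the knockout. Mitochondrial rRNA took 45.1% ± 1.25 (SD, n = 4) of all counts in the wildtype and 66.7% ± 0.942 in the knockout. This difference makes every fold change depend on the scaling between libraries, and the main values are scaled by the median of ratios over genes.

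The bases around the RefSeq start of 6 members are shown to let the results for single genes be read beside their start sequences. Each line holds the 10 bases before and the 20 bases from the start of the gene in RefSeq on GRCm38.p6, with the longest run of C and T in these 30 bases in capitals. Rpl3l and Rps2 are the members that fell, Rps27 is the abundant member with the smallest change, and Rps6, Rpl28 and Rpl35 rose. Rpl3l is at chr17:24727816-24727845 on the plus strand, Rps2 at chr17:24720053-24720082 on the plus strand, Rps27 at chr3:90213629-90213658 on the minus strand, Rps6 at chr4:86857348-86857377 on the minus strand, Rpl28 at chr7:4792955-4792984 on the plus strand and Rpl35 at chr2:39005112-39005141 on the minus strand.
Rpl3l: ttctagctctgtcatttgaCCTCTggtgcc
Rps2: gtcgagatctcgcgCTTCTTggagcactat
Rps27: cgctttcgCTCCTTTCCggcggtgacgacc
Rps6: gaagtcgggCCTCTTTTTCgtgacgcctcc
Rpl28: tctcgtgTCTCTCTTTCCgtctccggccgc
Rpl35: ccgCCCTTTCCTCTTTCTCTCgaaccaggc
The run is 5 bases long in Rpl3l, 6 in Rps2, 9 in Rps27, 10 in Rps6, 11 in Rpl28 and 18 in Rpl35. The RefSeq start need not be the 5′ end of the mRNA, and that of Rps2 lies 1947 bases inside the gene as GENCODE annotates it and that of Rpl35 493 bases inside, so no comparison of the members that fell with those that rose is drawn from these runs. These 6 genes were picked for display after their values were known, and the counts over all members with a promoter entry follow further on.

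In the comparison of knockout with wildtype hearts, which the study made for its mitochondrial RNAs, the ribosomal protein genes showed a broad, shallow rise. Of the 79 members tested, 74 were higher in the knockout and 2 were lower by DESeq2 with Benjamini-Hochberg adjustment over all genes, where 18.2% of the 19959 genes tested were higher and 15.5% were lower. Among the 2435 genes of similarly high expression, averaging 1000 normalised counts or more, 32.2% were higher. The median member rose by 0.61 on the log2 scale, which is 1.53-fold, and the middle 50% of members lay between 0.47 and 0.74, while the median over all genes tested was 0.01. In 74 members every knockout library lay above every wildtype library, which was so for 16.7% of all genes tested. The members not called were Rps27, Rplp2 and Rpl39l. Rpl39l averaged 2.04 normalised counts and Rpl10l, which was not tested, had no count in any library. Both are known for expression in testis. In RNA from a tissue of mixed cells, more RNA per cell and a larger share of cells that hold much of it cannot be told apart.

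**Figure D1:**
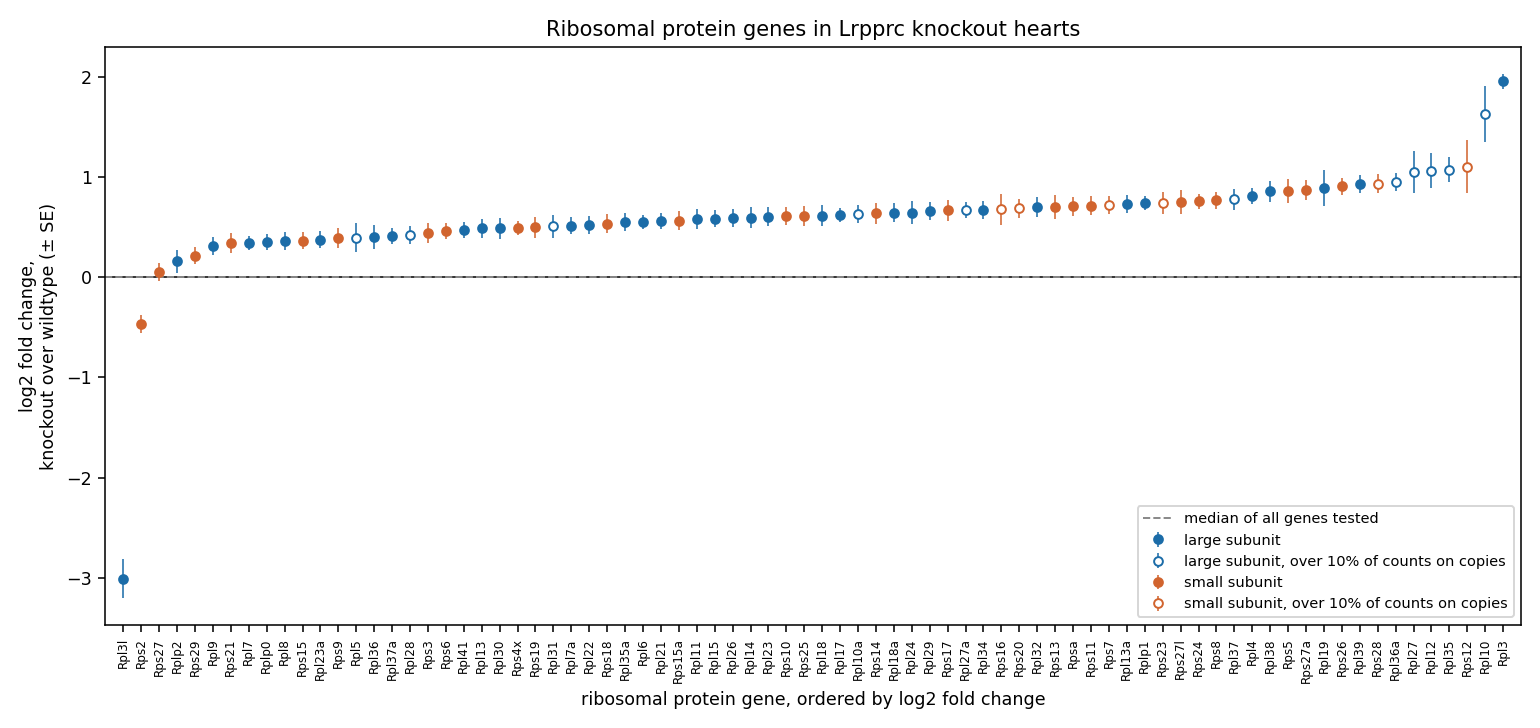
Log2 fold change, knockout over wildtype, of the 78 ribosomal protein genes averaging 10 normalised counts or more, ordered along the x axis, with bars of 1 SE (4 libraries per group). Open points are genes with over 10% of counts on near-identical copies. Rpl3l stands alone at -3.01 and Rpl3 at 1.96, and most others lie between 0.22 and 1.10.

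The rise was shared by both subunits. In the large subunit 45 of 48 members tested rose and 1 fell, with a median log2 fold change of 0.60, and in the small subunit 29 of 31 rose and 1 fell, with a median of 0.67. Apart from Rpl3 and Rpl10, the members that rose did so by 0.22 to 1.10. The 6 members that rose by at least 2-fold were Rpl3, Rpl10, Rps12, Rpl35, Rpl12 and Rpl27, and the last 5 of these share many reads with copies elsewhere in the genome. Across the 61 members with few reads on copies, the log2 fold change was weakly related to transcript length (Pearson's r = -0.13, Spearman's rho = -0.02) and to the wildtype TPM (r = 0.02, rho = -0.28). These correlations are across genes, which are not independent replicates, and describe these libraries only.

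The same rise was visible in every knockout heart. Relative to the wildtype mean, the median over 76 members, leaving out Rpl3 and Rpl3l, was 0.63, 0.60, 0.72 and 0.49 on the log2 scale in knockout libraries 1 to 4, and between -0.05 and 0.04 in the wildtype libraries. Knockout 3 was the highest and knockout 4 the lowest, and the groups did not overlap. Of the 76 members, 74 or 75 lay above their wildtype mean in each knockout library.

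**Figure D2:**
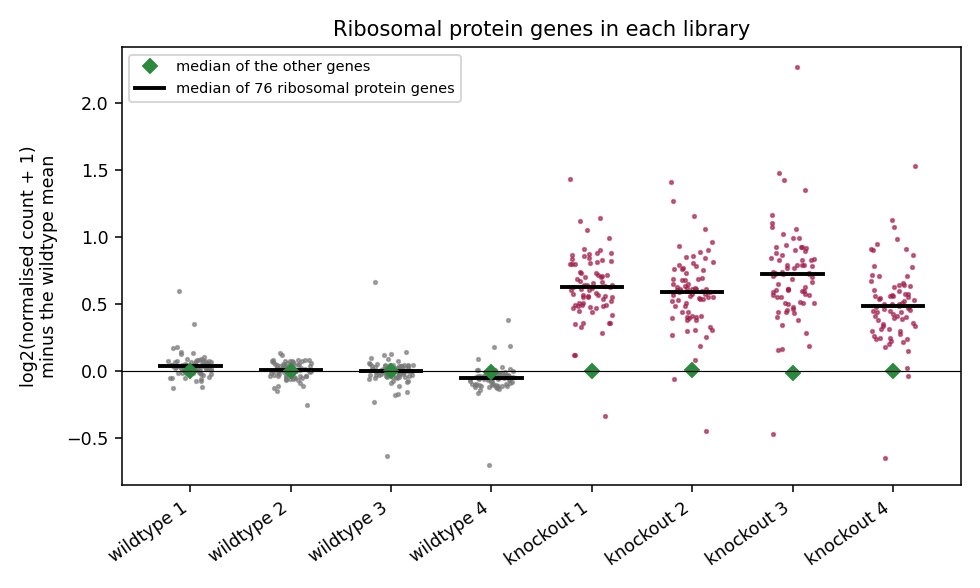
Log2(normalised count + 1) minus the wildtype mean of the same gene, for 76 ribosomal protein genes (points) in each of the 8 libraries. Black lines are the medians over these genes, at 0.49 to 0.72 in the knockout libraries, and green diamonds are the medians of the other genes, which stay near 0 in all libraries.

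As a share of RNA the family grew on each of 4 scales, by different amounts. Members took 0.995% ± 0.0121 (SD, n = 4) of the counts on nuclear genes in the wildtype and 1.66% ± 0.0431 in the knockout. Of all counts without mitochondrial rRNA they took 0.811% ± 0.0146 and 1.61% ± 0.0407, and of all counts with it 0.445% ± 0.0175 and 0.537% ± 0.0121. Their summed TPM, a level per transcript length, was 8792 ± 341 in the wildtype and 11814 ± 219.6 in the knockout. With libraries scaled to total counts the members' median log2 fold change was 0.31, with 53 higher and 3 lower where 9.64% of all genes tested were higher, and the median gene moved to -0.28. With libraries scaled to total counts without mitochondrial rRNA it was 1.03, with 76 higher and 1 lower where 38.9% of all genes were higher, and the median gene moved to 0.44. Measured from the median gene the members' median was 0.59 under all 3 scalings.

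The largest changes were in the paralog pair Rpl3 and Rpl3l. Rpl3, a large subunit protein near the peptidyl transferase centre, had 2019, 1903, 2117 and 1961 normalised counts in the wildtype libraries and 7994, 7427, 8095 and 7523 in the knockout libraries. It rose 3.88-fold (log2 fold change 1.96, SE 0.0761, adjusted p = 1.85e-142), with no overlap between groups. Rpl3l, its muscle paralog, had 1639.5, 1667, 1551 and 1591 normalised counts in the wildtype and 296, 172, 193 and 142 in the knockout. All 4 knockout hearts lay far below the wildtype, and the fall was 8.04-fold (log2 fold change -3.01, SE 0.197, adjusted p = 5.29e-50). The longest open reading frames of the pair are 74.9% identical in nucleotides, and neither gene had more than 0.1% of its counts on copies.

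Per transcript length, Rpl3l went from nearly the level of Rpl3 to a trace of it. Its share of the summed TPM of the pair was 44.2%, 46.1%, 41.7% and 44.2% in the wildtype libraries and 3.49%, 2.20%, 2.28% and 1.81% in the knockout libraries. The groups were far apart, with means of 44.0% ± 1.81 (SD, n = 4) and 2.44% ± 0.726. The log2 ratio of Rpl3l to Rpl3 within a library, which no scaling between libraries can change, differed by -5.02 (exact permutation test over 70 assignments, two-sided p = 0.0286, the smallest that 4 against 4 allows, adjusted p = 0.0357 over 5 pairs). The sum of both TPM values rose from 86.6 ± 2.80 to 175.4 ± 5.98. The wildtype level of Rpl3 alone was the lowest of the 76 members compared on TPM with copies summed, and in the knockout it ranked at 36 of 78, with Rpl3l and Rps27l counted.

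**Figure D3:**
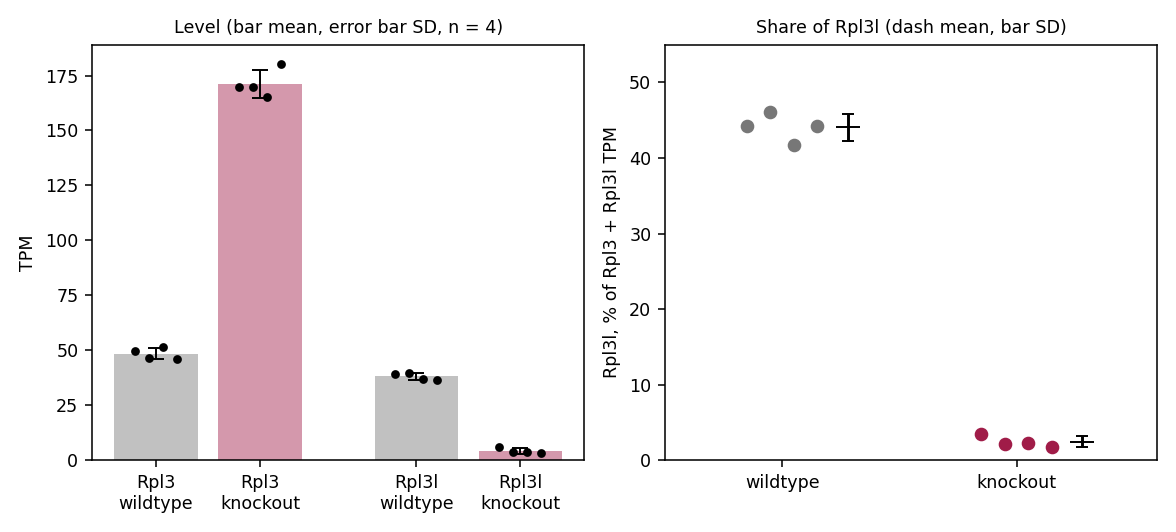
Left, TPM of Rpl3 and Rpl3l (bar mean, error bar SD, points the 4 libraries of each group). Right, Rpl3l as a percentage of the summed TPM of both, near 44.0% in the wildtype and 2.44% in the knockout, with no overlap.

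Rps2 was the other member that fell. This small subunit protein sits near the mRNA entry channel, and among the members its mRNA had the third highest wildtype TPM. Its normalised counts were 7737, 7981, 8529.7 and 7772 in the wildtype and 6361, 5889.8, 5793 and 5117 in the knockout. The groups did not overlap and the log2 fold change was -0.47 (SE 0.0935, adjusted p = 5.50e-06). With total counts without mitochondrial rRNA, where the median gene stood at 0.44, its log2 fold change was -0.04 (adjusted p = 0.741). Its annotated gene (chr17:24718116-24721929, plus strand) begins 1947 bases before the RefSeq start and ends 5891 bases before Rpl3l (chr17:24727820-24736143, plus strand).

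A few members stayed near their wildtype level while the family rose. Rps27, a zinc-finger protein of the small subunit, had 1680.4, 1674, 1575 and 1573 normalised counts in the wildtype and 1771, 1562, 1827 and 1587 in the knockout. These ranges overlap and the log2 fold change was 0.05 (SE 0.0909, adjusted p = 0.705). Rps29, another small subunit protein and the member with the highest wildtype TPM, had 2346, 2379.8, 2455 and 2373 normalised counts in the wildtype and 3066, 2718, 2663 and 2648 in the knockout. The groups did not overlap, but the rise of 0.22 (SE 0.0821, adjusted p = 0.0285) was the smallest of the called members and turned to -0.08 (adjusted p = 0.509) with total counts. Its call was lost without wildtype replicate 1, 2, 3 or 4 or knockout replicate 1 or 2, with adjusted p = 0.118, 0.0991, 0.0678, 0.109, 0.0751 and 0.0627. On the TPM scale Rps29 was at 293 ± 7.66 (SD, n = 4) in the wildtype and 310.1 ± 23.9 in the knockout. With its copies summed it was at 359.8 and 339.3, so its direction in TPM depended on the copies. The copies held 2.57% of the counts in the wildtype and 1.06% in the knockout. Counts of Rps29 summed with them still rose, by 0.20 (SE 0.0815, DESeq2 adjusted p = 0.0492). With total counts Rps27 was lower by -0.25 (adjusted p = 0.00514).

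Rplp0, Rplp1 and Rplp2 encode the ribosomal stalk, which recruits translation factors. Rplp1 rose from 3372, 3358, 3271 and 3284 normalised counts to 5841, 5667, 5551 and 5184, a log2 fold change of 0.74 (SE 0.0713, adjusted p = 1.24e-23). Rplp2, its partner in the stalk dimer, had 2116, 2014, 2080.1 and 1815 in the wildtype and 2176, 2128, 2607 and 2038 in the knockout. Only knockout 3 stood well above the wildtype range for Rplp2, and its log2 fold change was 0.16 (SE 0.110, adjusted p = 0.286), or 0.08 without knockout 3 and -0.15 with total counts. Rplp0, the stalk base, was at 6657 to 7141 in the wildtype and 8011 to 9387 in the knockout, with no overlap and a log2 fold change of 0.35 (SE 0.0798, adjusted p = 9.72e-05). The differences among these 3 genes were not tested.

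Rps6, the substrate of S6 kinase, had 3472, 3280.5, 3427 and 3152 normalised counts in the wildtype and 4908, 4429, 4722 and 4352 in the knockout. All knockout values were higher, with a log2 fold change of 0.47 (SE 0.0801, adjusted p = 8.00e-08). Rpsa, which also serves as a laminin receptor, had 5247 to 5432 normalised counts in the wildtype and 7725 to 9893 in the knockout (log2 fold change 0.71, SE 0.0951). Rpl11, which with Rpl5 and the 5S rRNA binds Mdm2 when ribosome assembly fails, had 1463 to 1753 in the wildtype and 2336 to 2688 in the knockout (log2 fold change 0.58, SE 0.0984). Rpl5 is given with the members that share reads with copies. Rpl41, a very short peptide of the large subunit and among the most abundant members, rose by 0.47 (SE 0.0818). Total counts took Rps6, Rplp0, Rpl7 and Rpl41 below the threshold, at 0.17, 0.05, 0.05 and 0.17.

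Many ribosomal protein genes have processed pseudogenes that carry nearly the same sequence, and RSEM divides their reads. Such copies, at least 95% identical over 200 bases or 80% of the shorter transcript, were found for 76 members. In 17 members over 10% of the counts of the gene and its copies together stood on the copies, and all 17 rose, with a median of 0.74. The 61 other members averaging 10 normalised counts or more had 57 higher and 2 lower, with a median of 0.59. Summing each gene with its copies left 74 higher and 2 lower.

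The values of the members that share most reads depended on the copies. Rps12, a small subunit protein, had 68.4 to 162 normalised counts of its own in the wildtype and 175 to 288 in the knockout, with 94.1% of the wildtype reads of the gene and its copies on the copies. Summed with its copies it had 2068, 1755, 1692 and 1864 in the wildtype and 4174, 4439, 4928 and 3997 in the knockout, a log2 fold change of 1.25 (SE 0.108) beside 1.10 (SE 0.265) alone. The summed values of the groups did not overlap. Rpl12, a protein at the base of the stalk, likewise rose by 1.30 (SE 0.0998) summed and 1.06 (SE 0.175) alone. Rpl35, near the exit tunnel, rose by 1.04 (SE 0.115) summed and 1.07 (SE 0.125) alone.

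For Rpl10 and Rpl27 the sums were smaller than the single values. Rpl10, among the last proteins to join the large subunit, had 353, 386, 579.5 and 224 normalised counts in the wildtype and 985, 972, 1760.0 and 1057 in the knockout, a log2 fold change of 1.63 (SE 0.279). Summed with copies it had 3548, 3557, 3141 and 3211 in the wildtype and 5767, 5928, 6859 and 5755 in the knockout, a log2 fold change of 0.85 (SE 0.0977). Both sets of values kept the groups apart. Rpl27 rose by 1.05 (SE 0.206) alone and by 0.61 (SE 0.0982) summed. Rpl5 rose by 0.40 (SE 0.147, adjusted p = 0.0236) alone and by 0.45 (SE 0.0923, adjusted p = 8.47e-06) summed, and its single value lost the call without wildtype replicate 2, 3 or 4 or knockout replicate 1 or 2 (adjusted p = 0.0559, 0.104, 0.0627, 0.0875 and 0.0540). Rpl36a and Rps28, a large and a small subunit protein, rose by 0.95 (SE 0.0936) and 0.93 (SE 0.0970), and by 0.86 and 0.98 summed. Rpl39, a small protein of the exit tunnel with under 1% of its reads on copies, rose by 0.93 (SE 0.0892).

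Other paralogs moved in either direction against their parent gene. Rps27l, the paralog of Rps27 and a known p53 target, had 402, 374, 432 and 360.2 normalised counts in the wildtype and 703, 632, 715 and 584 in the knockout. It rose by 0.75 (SE 0.120, adjusted p = 6.94e-09) with no overlap, and its share of the TPM of the pair went from 11.5% ± 0.950 to 17.3% ± 0.586. The log2 ratio of Rps27l to Rps27 differed by 0.70 (exact permutation test, p = 0.0286, adjusted p = 0.0357 over 5 pairs).

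Of the pairs whose paralog lies outside the name rule, Rpl22l1 rose more than Rpl22. Rpl22l1 had 144, 145, 163 and 121 normalised counts in the wildtype and 303, 295, 413 and 271 in the knockout, with no overlap. The log2 ratio of its TPM to that of Rpl22 was -2.84 ± 0.16 (SD, n = 4) in the wildtype and -2.21 ± 0.21 in the knockout, a difference of 0.63 (exact permutation p = 0.0286, adjusted p = 0.0357), while Rpl22 itself rose by 0.52 (SE 0.0911). Rpl36al lost ground to Rpl36a, with a difference of -0.51 (exact permutation p = 0.0286, adjusted p = 0.0357), or -0.34 with the copies of Rpl36a summed. For Rpl7l1 and Rpl7 the difference was -0.30 (exact permutation p = 0.0571), and Rpl7 rose by 0.34 (SE 0.0708). The pairs of Rpl39l and Rpl10l had too few counts to test.

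Levels per transcript length, with the copies summed, are given as TPM. Leaving out the paralogs Rpl3l and Rps27l, the 76 members had a median of 120.5 TPM in the wildtype, and from the tenth to the ninetieth percentile they ran from 77.4 to 206.8 TPM. In the knockout the median was 162.9 TPM and these percentiles were 113.4 and 296.9 TPM. The SD of log2 TPM across members was 0.58 in the wildtype and 0.52 in the knockout. The highest member was Rps29 in the wildtype and Rplp1 in the knockout, and Rps2 went from rank 3 to rank 30.

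**Figure D4:**
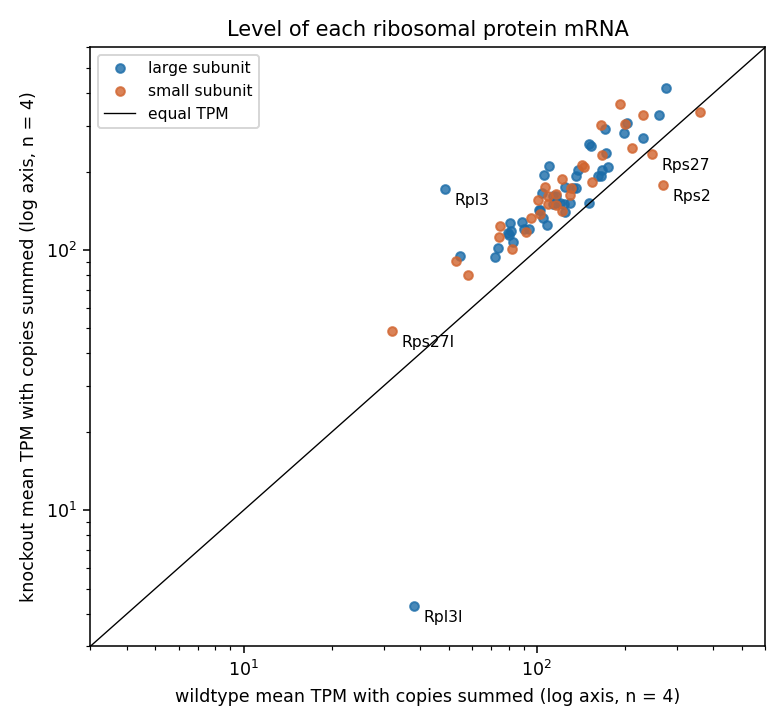
Mean TPM in the knockout against mean TPM in the wildtype (4 libraries each, both axes logarithmic) for 78 ribosomal protein genes with their copies summed. Most points lie above the line of equal TPM in 1 band, with Rpl3l far below it and Rps2, Rps27 and Rps29 below it by less.

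Promoter entries in RefSeq were found for 60 of the 80 members. A run of at least 8 C or T bases within 25 bases of the start was present in 32 of them, or 53.3%, against 22.3% of the 27025 genes with an entry. The letters CCGGAAG on either strand, the core bound by ETS factors such as Gabpa, were in the 300 bases around the start of 25 members, or 41.7%, against 9.93% of all genes. Members with and without the run had near-equal medians. Of the 32 members with it 29 rose, with a median of 0.60, and of the 27 tested members without it 25 rose, with a median of 0.59. A match of letters describes the sequence only.

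The list of ribosomal protein genes whose names fall outside the rule had 9 names, and 7 of them matched a gene in these data. Of these 6, or 85.7%, rose, where 18.2% of all genes tested were higher, with a median log2 fold change of 0.50. Fau, which is made as a fusion with a ubiquitin-like protein, had 614, 832, 818 and 739 normalised counts in the wildtype and 1356, 1458, 1735 and 1377 in the knockout, and rose by 0.98 (SE 0.137). The groups did not overlap. Rack1, a scaffold on the small subunit, rose by 0.78 (SE 0.0891). Rpl22l1, described above, also belongs to this list. The member that was not called was Rpl7l1, at 0.05.

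The other lists hold genes of translation and of ribosome assembly, and their counts stand beside 18.2% higher and 15.5% lower over all genes tested, and 32.2% higher and 25.9% lower among the highly expressed genes. Near-identical copies were looked for only for the ribosomal protein genes chosen by name, so the values in these lists are of single genes. Of 13 elongation and nascent chain factors, 10 rose (76.9%) and 1 fell (7.69%), with a median of 0.49. Eef1a1, the main elongation factor and itself a TOP mRNA, had 11954, 11641, 12782 and 12343 normalised counts in the wildtype and 40262, 46970.1, 49700.4 and 46005 in the knockout, and its rise of 1.91 (SE 0.0911) was near that of Rpl3. Its muscle paralog Eef1a2 was the factor that fell, by 0.42 on the log2 scale (SE 0.153, adjusted p = 0.0200), and was named after its value was seen. Btf3, of the nascent chain complex, rose by 1.26 and Eef1e1, of the synthetase complex, by 0.85.

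Of 34 initiation factors 23 rose (67.6%) and 2 fell (5.88%), with a median of 0.49, led by Eif4a1 at 1.63, Eif3c at 1.62 and Eif2s2 at 1.56. Of 64 ribosome biogenesis factors matched, out of 65 listed, 44 rose (68.8%) and 1 fell (1.56%), with a median of 0.61. The largest rises there were in Gnl3, the nucleolar GTPase nucleostemin, at 2.00 (SE 0.191), Rrp12 at 1.78 (SE 0.225) and Nhp2 at 1.73 (SE 0.187). Of 38 subunits and factors of RNA polymerases I and III 14 rose (36.8%) and 5 fell (13.2%), with a median of 0.23. Polr3g led at 2.20, followed by Polr1e at 0.90 and Polr2e at 0.77.

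Of 28 genes that control ribosomal protein mRNAs, 5 rose and 5 fell, with a median of 0.12. Each count is 17.9% of the list, near the 18.2% higher and 15.5% lower over all genes tested. Myc, a transcription factor that drives ribosome production, had 20.6, 13.1, 25.4 and 31.1 normalised counts in the wildtype and 275, 227, 343 and 192 in the knockout, a rise of 3.54 (SE 0.286, adjusted p = 3.06e-33). Sesn2, an inhibitor of mTOR complex 1, rose by 3.58 (SE 0.244) and Atf4, the transcription factor of the integrated stress response, by 2.61 (SE 0.140). The groups did not overlap in these 3 genes. The other genes of the list past the threshold, named after their values were seen, were Eif4ebp1 at 2.55 and Mtor at 0.90, which rose, and Mycn at -1.45, Eif4ebp2 at -0.88, Larp4b at -0.44, Rptor at -0.43 and Gabpa at -0.29. Larp1 was at 0.13 (adjusted p = 0.499).

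**Figure D5:**
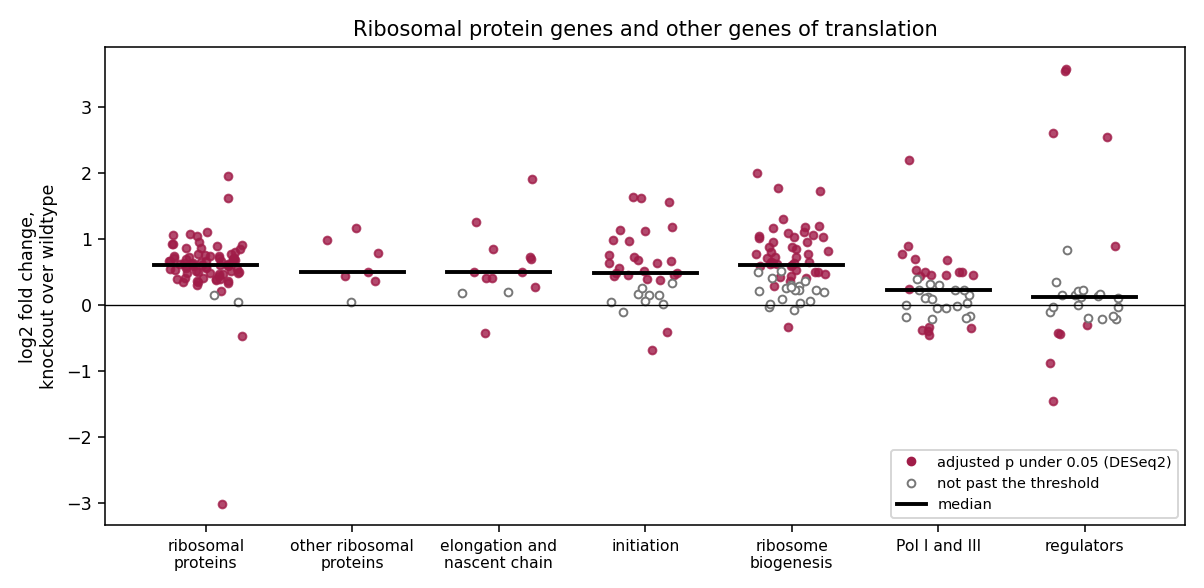
Log2 fold change, knockout over wildtype, of the ribosomal protein genes (averaging 10 normalised counts or more) and of the 6 other lists. Filled points have an adjusted p under 0.05 by DESeq2, open points do not, and lines are medians, which fall from 0.61 for ribosomal proteins and biogenesis factors to 0.12 for the regulators.

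Markers of cells of the heart differed between the groups in part, and their counts stand beside the same 18.2% higher and 15.5% lower over all genes tested. Of the 4 cardiomyocyte markers, Myh6 fell to a log2 fold change of -0.87, Actc1 to -1.15 and Ryr2 from a mean of 79439 to 30057 normalised counts, and Tnnt2 was at -0.15. Of the 5 fibroblast markers Col1a1 and Col1a2 rose, by 1.48 and 1.29, and in 1 of the 5 every knockout library lay above the wildtype. In Col1a1, Col1a2 and Lum knockout 3 stood below the other knockout libraries. It had 769 normalised counts of Col1a1 against 656 to 795 in the wildtype. Of Lum it had 250.1 against 1160 to 2196 in the other knockout libraries. In Dcn (8217 against 6841 to 9397) and Pdgfra (1016 against 764 to 1380) it lay within their range. With knockout 3 left out, 74 ribosomal protein genes were higher and 2 lower, and their median was 0.58 on the log2 scale. The sum of the fibroblast list ran from 11904 to 12408 normalised counts in the wildtype and from 12602 to 24029.8 in the knockout. Of the 5 macrophage markers 4 rose, or 3 by edgeR, and in 1 of the 5 every knockout library lay above the wildtype. Cd68 rose by 1.42, and the list had sums of 1844 to 2236 in the wildtype and 2058 to 4807 in the knockout. Of the 4 atrial markers Myl7 fell to -3.54 and Sln to -2.84, with sums of 9980.2 to 12038 and 1268 to 6012. Of the 4 endothelial, 5 erythroid and 3 tested lymphocyte markers 0 passed the threshold by DESeq2 or by edgeR, and 2 endothelial markers, 1 higher and 1 lower, had an unadjusted p under 0.05. The endothelial sums were 11643 to 12483 and 8231 to 14327, the erythroid sums 20882 to 27049 and 15231 to 53861, and the lymphocyte sums 5.68 to 28.8 and 6.77 to 40.7. The part of these cells in the ribosomal protein values was not tested.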

How the data were processed

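Total RNA from 8 hearts was sequenced as stranded paired-end libraries. The deposited expected counts, TPM and effective lengths per gene were made by the authors with RSEM 1.2.31 and Bowtie2 on mm10 transcripts of GENCODE M13, with their own mitochondrial sequences ending in 50 adenines. Symbols came from GENCODE M21. The authors' tables of means, fold changes and p-values, and of normalised counts in 8 columns whose names match no label, were not used. The ribosomal protein genes and all lists were chosen with earlier results of these data known.

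Expected counts were rounded and fitted on all genes with DESeq2 1.42.0, genotype only, with the effective length as an offset. The threshold was an adjusted p of 0.05. "Normalised counts" are those of this fit. Ratios of paralog to parent were log2 TPM ratios, compared by an exact permutation test. A pseudocount of 1 was added for values by library on the log scale. Copies were found with blastn 2.17.0. Genes named by rule were the 8 largest rises and falls, the 5 highest TPM, the paralog pairs and a set chosen for known roles. In each other list they were the 3 largest changes. Alternatives were edgeR 4.0.16 with its quasi-likelihood test, other scalings and filters, a replicate block, each library left out, and sums with copies. The scripts were tested on simulated data. Each library was 1 heart, and no 2 libraries agreed within sampling noise. The number of hearts, 4 per group, limits the precision more than the depth does.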

Additional observations from a re-analysis of the deposited data

Results flagged for a closer look

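In each group of 4 libraries of the ribosomal protein genes examined, the highest and the lowest library were compared with the other 3. In 6 of 60 groups a library stood apart from its group, where about 3 would by chance. Knockout 3 was above the other knockout libraries in Rpl10 (1760.0 normalised counts against 972 to 1057), in Rpl27 (239.8 against 153 to 161) and in Rpl35 (1899.8 against 1440 to 1478), which are genes with many reads on copies. Knockout 2 was low in Rpl12 (200.5 against 243 to 251). Knockout 1 was high in Rps29 (3066 against 2648 to 2718), and without it the log2 fold change of Rps29 was 0.17. Wildtype 4 was high in Rpl19 (4667 against 3172 to 3379), a large subunit gene named here after its values were seen, which rose by 0.89 (SE 0.177), and which stood between 5144 and 8015 in the knockout.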

How the results depend on the processing

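Under the median-of-ratios scaling, and under the scaling of edgeR's own, no alternative changed the broad rise. The number of higher members was 73 with edgeR (2 lower, median log2 fold change 0.59) and 74 with sums of copies, and 72 to 74 when each library was left out, with 2 lower and a median of 0.58 to 0.65, or 0.57 to 0.63 from the median gene. Scaling moved the size. The median was 0.31 with total counts and 1.03 with total counts without mitochondrial rRNA, where 1 member was lower. With total counts Rpl39l (-0.25), Rplp2 (-0.15), Rps27 (-0.25) and Rps29 (-0.081) changed direction. In the other lists (7, 13, 34, 64, 38 and 28 genes, markers left out) 102 genes together rose and 14 fell. Of all genes tested 18.2% were higher and 15.5% lower. With total counts 62 rose and 30 fell, where 9.64% of all genes were higher. With total counts without mitochondrial rRNA 158 rose and 1 fell, where 38.9% of all genes were higher. The share of all genes that were lower is not given for these 2 scalings, so the 30 and the 1 lack a comparison. Of 458 values for 26 named members under the alternatives, 433 kept their direction and side of the threshold, and 19 fell below it.

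With 1 library left out, an exact test of the pair ratios cannot go below 0.0571. The differences then ranged from -5.21 to -4.88 for Rpl3l, from 0.66 to 0.76 for Rps27l, from 0.53 to 0.70 for Rpl22l1, from -0.57 to -0.47 for Rpl36al and from -0.37 to -0.25 for Rpl7l1, which passed at -0.32 (exact p = 0.0286) without the length offset. Same-numbered libraries did not deviate together (r from -0.05 to 0.09 over 10447 genes), and r ran from -0.07 to 0.11 between other libraries. These values show no pairing by number, but so few pairs cannot exclude one. With the replicate block 73 members were higher and 2 lower, with a median of 0.61. The block took Rps29 below the threshold (adjusted p = 0.144), as did edgeR (0.0751).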

Other observations

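Several ribosomal protein genes carry small nucleolar RNAs in their introns, which guide the modification of rRNA. The files list 9 such records on the same strand as the member that holds them that average 10 normalised counts or more. Of these 2 rose, a share near the 18.2% of all genes tested that were higher, with a median log2 fold change of 0.15. The host genes of these 9 rose by 0.40 (Rpl5) to 1.63 (Rpl10), and these 2 genes were at 0.45 and 0.85 with their copies summed. Snora78, which lies within Rps2 on the opposite strand and is not among the 9, was at 0.20 (SE 0.264) where Rps2 fell. Snora3, inside Rpl27a, rose by 1.02 (SE 0.339), and Gm26448, inside Rpsa, by 0.76 (SE 0.177). Snord15b, inside Rps3, was at 0.15 (SE 0.112) where Rps3 rose by 0.44. Reads of such an RNA and of its unspliced host cannot be told apart.

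The members that fell, Rps2 and Rpl3l, lie next to each other on chromosome 17 with Ndufb10 between them. Ndufb10, a subunit of complex I on the opposite strand, had 5214, 5222, 5233 and 4968 normalised counts in the wildtype and 4245, 3506, 4396 and 3101 in the knockout, and fell by 0.44 on the log2 scale (SE 0.126, adjusted p = 0.00263). With total counts without mitochondrial rRNA it was at -0.02 (adjusted p = 0.909) and Rps2 at -0.04, while Rpl3l was at -2.59. The next genes outward rose, Msrb1 by 0.39 and Tbl3 by 0.85, and with total counts Msrb1 was at 0.09 (adjusted p = 0.568). This neighbourhood was looked at after the values of Rps2 and Rpl3l were seen.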
